A study of Mus musculus with 12 samples.

Results

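The genes described here are the nuclear-encoded subunits of the mitochondrial respiratory chain and of ATP synthase, measured in the livers of sedentary and exercised mice. They were chosen by symbol alone, as the rows of the deposited gene table whose names begin with Nduf and a subunit letter and number, with Uqcr, with Atp5 or with Cox4 to Cox8, plus Sdha, Sdhb, Sdhc and Sdhd. The rule found 84 of 17432 genes, of which 39 carried complex I names, 4 complex II, 8 complex III, 16 complex IV and 17 complex V names. The table held no row for the subunits encoded by mitochondrial DNA, so only the nuclear share of each complex is described. By symbol the rule also took in Ndufa4l2 and Cox7a2l, which are not structural subunits of the complexes they are named for. Ndufa4 carries a complex I name although its protein is a complex IV subunit, and the genes Cyc1 and Ndufab1 fell outside the rule.

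Livers came from 12 male wild-type C57BL/6J mice, 6 in the Sedentary group and 6 in the Exercise group, all 8 to 10 weeks old. Both groups were trained to the same daytime feeding schedule, accustomed to the treadmill, and refed before food was removed. Exercise mice then ran on the treadmill for 3 hours in this postprandial state, at 14 m/min, while Sedentary mice rested, and all livers were collected at the end of the run. The comparison therefore concerns the response to 1 bout of running in fed mice of 1 sex and strain, not to training.

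Complex I (NADH dehydrogenase) and complex II (succinate dehydrogenase) pass electrons to ubiquinone, complex III passes them on to cytochrome c, and complex IV (cytochrome c oxidase) delivers them to oxygen. Complexes I, III and IV pump protons across the inner mitochondrial membrane, and complex V (ATP synthase) uses their return to make ATP. In the liver this system powers gluconeogenesis and urea synthesis and takes up electrons from the oxidation of fatty acids. Its nuclear genes are known targets of the transcription factors NRF1, GABP, YY1 and ERRα, which work with the coactivator PGC-1α.

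The libraries held 18745379 to 19324461 estimated counts each, and 12344 genes passed the filter on low counts. Levels are given as CPM, counts scaled to library size and between libraries by the TMM method. To compare genes with each other, the deposited FPKM is used, which is scaled for library size and transcript length but not by TMM. Group means in FPKM can therefore differ in direction from the TMM-scaled change. All 10 hepatocyte markers were present, with a summed level of 134172 to 179997 CPM (median 146817) in Sedentary and 167694 to 189893 CPM (median 179660) in Exercise livers. Their estimates were all positive, with a median log2 fold change of 0.21, and 4 of the 10 rose. The summed level of 19 striated muscle markers was 20.1 to 33.9 CPM in Sedentary livers. It was 21.5 CPM in Exercise replicate 1 and 7.09 to 8.77 CPM in the other Exercise livers. Of the 8 muscle markers tested, 6 fell, against 21.3% of all genes tested. In these whole-tissue samples, fewer cells of a type and less RNA per cell cannot be told apart.

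Promoter sequences were available for 68 of the 84 genes, as windows of 250 bases before to 50 bases after the transcription start (RefSeq, GRCm38.p6). The 4 windows below are printed because they hold an NRF1 motif together with an ETS motif, which GABP binds, or with an ERR motif, and because they include Sdhd, which fell after exercise, next to genes that did not pass the test. Capitals mark matches on either strand to the NRF1 motif (GCGCA, then any base, then GCGC), the ETS motif CCGGAAG or the ERR motif TCAAGGTCA, and each window was shortened to end no more than 30 bases into an annotated exon. Of 5 windows with such a pair, that of Atp5k is not shown because its ETS match lies in an annotated exon.
Sdhd (chr9:50603820-50603939, minus strand): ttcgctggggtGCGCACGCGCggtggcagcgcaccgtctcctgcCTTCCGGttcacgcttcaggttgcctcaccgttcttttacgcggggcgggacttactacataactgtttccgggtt
Atp5g3 (chr2:73911297-73911576, minus strand): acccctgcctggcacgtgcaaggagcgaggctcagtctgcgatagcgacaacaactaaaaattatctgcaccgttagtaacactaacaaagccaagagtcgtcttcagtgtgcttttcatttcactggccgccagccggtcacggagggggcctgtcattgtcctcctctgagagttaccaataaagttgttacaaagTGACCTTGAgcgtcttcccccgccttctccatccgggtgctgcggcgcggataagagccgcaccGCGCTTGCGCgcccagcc
Cox6a1 (chr5:115348952-115349159, minus strand): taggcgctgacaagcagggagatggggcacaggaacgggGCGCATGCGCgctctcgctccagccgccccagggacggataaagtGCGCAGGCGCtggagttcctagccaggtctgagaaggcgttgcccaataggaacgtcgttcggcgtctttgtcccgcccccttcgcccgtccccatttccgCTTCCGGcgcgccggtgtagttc
Atp5h (chr11:115419933-115420157, minus strand): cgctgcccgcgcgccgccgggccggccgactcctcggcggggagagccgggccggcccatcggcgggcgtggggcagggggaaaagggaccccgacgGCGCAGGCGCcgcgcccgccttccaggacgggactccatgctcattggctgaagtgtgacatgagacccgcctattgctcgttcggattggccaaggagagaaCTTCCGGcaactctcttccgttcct

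In Sdhd the NRF1 match began 79 bases and the ETS match 46 bases upstream of the RefSeq start. That start differs from the GENCODE start of the gene given below, 50603812, and the printed stretch lies wholly upstream of the latter. Cox6a1 held NRF1 matches at 162 and 117 bases and an ETS match at 16 bases upstream, and Atp5h held them at 141 and 38 bases. In Atp5g3 the ERR match lay 52 bases upstream and the NRF1 match 13 bases after the start. An ERR match was found in only 2 of the 68 windows, those of Atp5g3 and Sdhd (2.94%, against 0.262% of the windows of genes tested), and in Sdhd it lay outside the printed stretch. The NRF1 motif was in 16 windows (23.5%), against 10.4% of the 9920 windows of genes tested and 4.78% of all 27025 windows. The YY1 motif AAGATGGC was in 9 windows (13.2%, against 4.67% of genes tested), the ETS motif in 16 (23.5%, against 1786 of 9920 genes tested), the CCAAT box in 29 (42.6%, against 39.0%) and the TATA box, read as TATAAA, in 7 (10.3%, against 7.49%). Of the 16 genes with an NRF1 match, all were tested and 1, Sdhd, changed. None of the 9 genes with a YY1 match changed. A match says only that these letters are in the window.

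Exercise moved the levels of the respiratory chain and ATP synthase genes little. Of the 84 genes, 79 were tested, and 2 of them (2.53%) had an adjusted p under 0.05, by the quasi-likelihood test of edgeR, where 42.4% of all genes tested did. Both were lower, Sdhd of complex II and the low-level gene Ndufa4l2, and none was higher, against 21.3% lower and 21.1% higher among all genes tested. Without adjustment, 4 of the 79 genes had a p under 0.05, against 49.6% of all genes. Among the 7091 genes whose mean reached 10 CPM, a level that most of the subunit genes exceed, 47.5% changed.

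Under TMM scaling, the width of the intervals shows how small a change these livers could have hidden. In 72 of the 79 genes the whole 95% interval of the change lay within 1.2-fold in either direction. The same held for 22.1% of all genes tested and 35.6% of those with at least 10 CPM. The latter were not matched on level, with a median of 30.4 CPM beside 149 CPM for the subunit genes. The intervals leave out the choice of scaling. That choice moved the median of the 79 genes to 0.072 with the length correction described below, or to -0.088 with library size alone. The median log2 fold change of the 79 genes was 0.0065, beside -0.0028 for all genes, and the median size of the change in either direction was 0.041, beside 0.21. The estimates were positive in 46 genes and negative in 33, and ran from -0.59 to 0.14. The 7 genes whose interval reached past 1.2-fold were Sdhd and Ndufa4l2, then Ndufa8, Ndufa1, Ndufb4c, Cox7a1 and Atp5h, of which those not on the list of named genes were picked out after their values were seen.

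**Figure D1:**
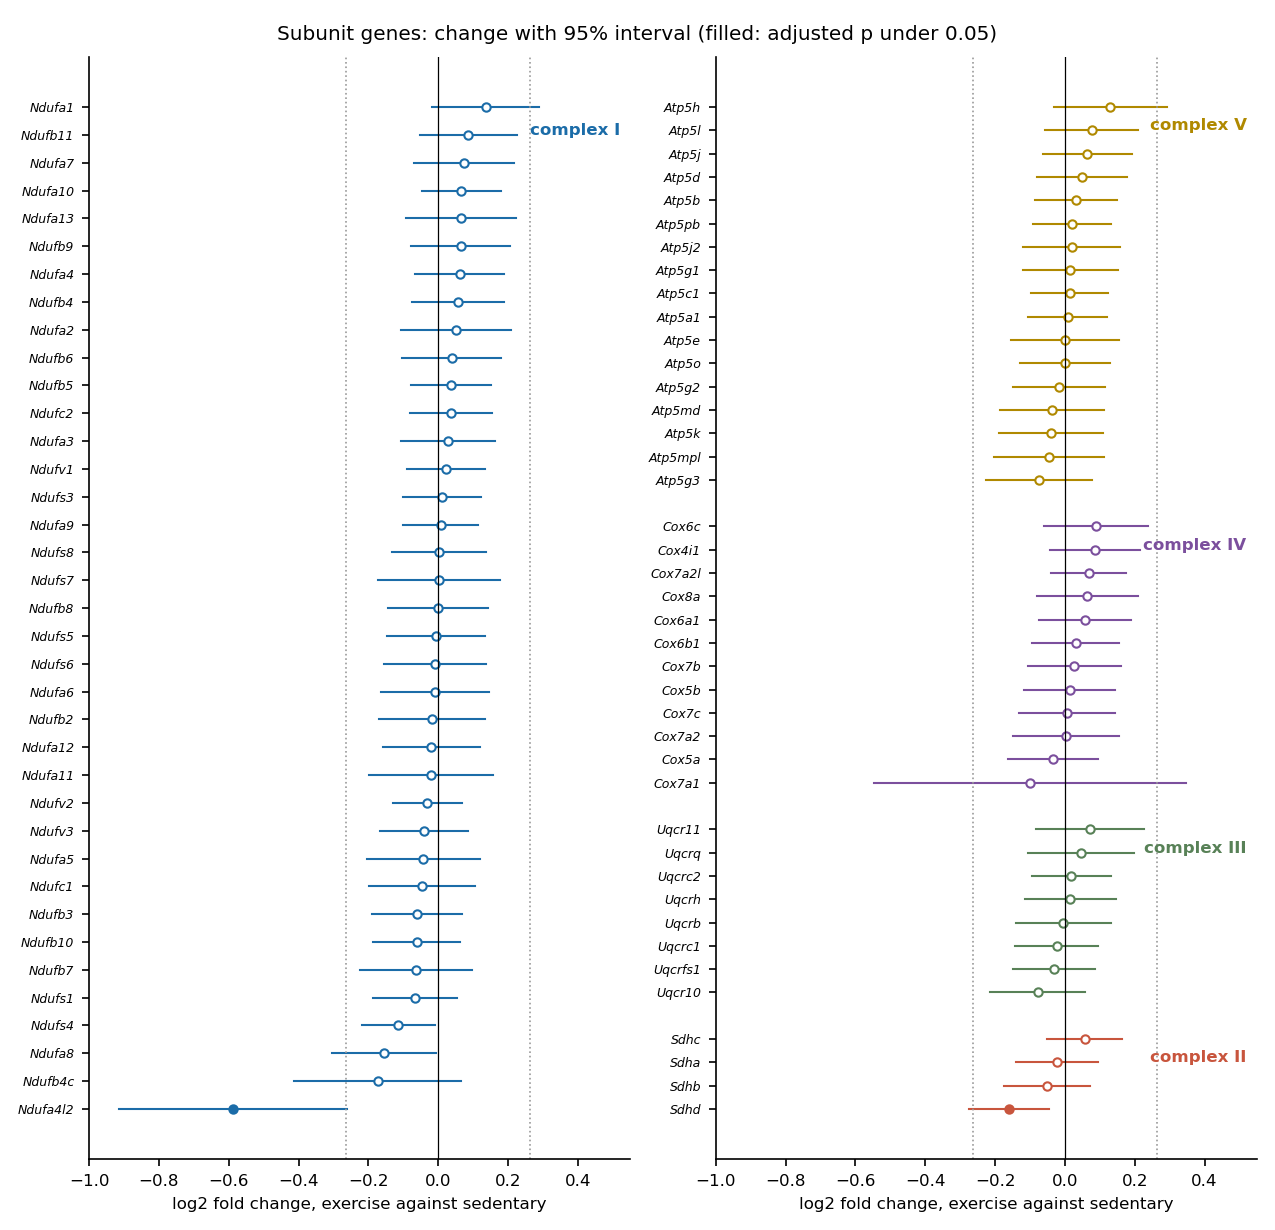
Log2 fold change (Exercise against Sedentary, x axis) with its 95% interval for the subunit genes tested, grouped by complex (1 gene not reported here is left out), with dotted lines at a 1.2-fold change. Filled points passed an adjusted p of 0.05 in edgeR's test: Ndufa4l2 and Sdhd, both lower.

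The number of calls, and that of Sdhd, depended on how transcript length was handled. Subunit genes are short, with a median effective length of 661 bases against 2713 for all genes tested, and short genes shifted together between livers. When the trend of each library with length was removed, 14 of the 79 genes changed, 13 higher and 1 lower, while the share of all genes changed was 42.1% (20.4% higher and 21.7% lower). The higher genes were 5 with complex I names, 4 with complex IV names and 4 of complex V, among them Cox4i1, Cox6a1, Cox7a2l, Cox8a, Atp5h and Atp5l. The corrected log2 fold changes of the 13 lay between 0.12 and 0.20, and the median over all 79 genes moved to 0.072. Other short genes moved alike. Under 700 bases the median went from 0.0099 to 0.064 in 42 subunit genes. In 214 other genes of that length with at least 10 CPM, the median went from 6.4e-05 to 0.063. At 1200 bases or more the medians went from 0.0072 to 0.046 in subunit genes and from 0.014 to -0.0070 in other genes. Ndufa4l2 stayed lower (-0.52, adjusted p = 0.0126 in edgeR's test) and Sdhd was no longer past the threshold (-0.090, adjusted p = 0.191 in edgeR's test).

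**Figure D2:**
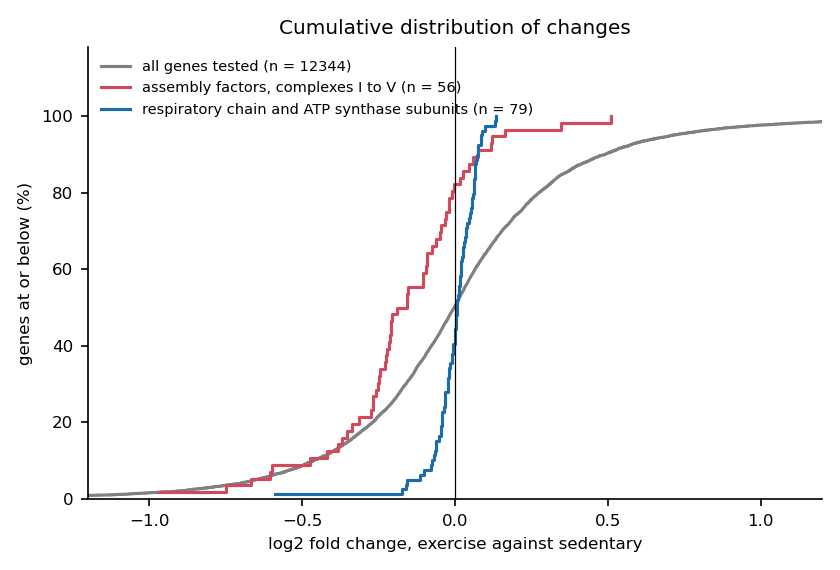
Share of genes (y axis, percent) at or below each log2 fold change (x axis, shown from -1.2 to 1.2) for all 12344 genes tested, 56 assembly factors and 79 subunit genes. The subunit genes rise steeply around 0, with a median of 0.0065, and the assembly factors lie to the left, with a median of -0.17.

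Complex II links the respiratory chain to the citric acid cycle, and 1 of its 4 genes fell. Sdhd, which encodes a membrane anchor of the complex (gene ID 66925, chromosome 9 of GRCm38, 50596357 to 50603812, minus strand), ran from 157.7 to 187.8 CPM with a median of 175.1 in Sedentary livers and from 146.2 to 165.2 CPM with a median of 156.8 in Exercise livers. Only Sedentary replicate 1 reached into the range of the Exercise group. The fall was 0.16 on the log2 scale (95% interval -0.27 to -0.045, standard error 0.055, adjusted p = 0.0255 in the edgeR fit, exact permutation p = 0.00866). Leaving out each liver in turn kept the call in 8 of 12 fits, and it was lost without Exercise replicate 3 or 5 or without Sedentary replicate 5 or 6, with the log2 fold change between -0.19 and -0.13.

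Sdhc, the other membrane anchor, ran from 163.6 to 195.4 CPM with a median of 180.7 in Sedentary livers and from 183.4 to 189.3 CPM with a median of 187.2 in Exercise livers. The Exercise livers lay within the Sedentary range, and the log2 fold change was 0.057 (95% interval -0.051 to 0.16, adjusted p = 0.4 from edgeR's test). Sdha, the catalytic flavoprotein, had medians of 383.7 and 378.6 CPM (log2 fold change -0.023, 95% interval -0.14 to 0.094). Sdhb, the iron-sulfur subunit, had medians of 222.9 and 208.5 CPM (log2 fold change -0.051, 95% interval -0.17 to 0.072). The ranges of both overlapped between the groups. Per transcript length, Sdhb was the highest of the 4 at 217 ± 16.5 FPKM (SD, n = 6) in Sedentary livers, while Sdha at 141 ± 8.04 FPKM and Sdhd at 146 ± 6.91 FPKM (SD, n = 6) differed by less than their spread.

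**Figure D3:**
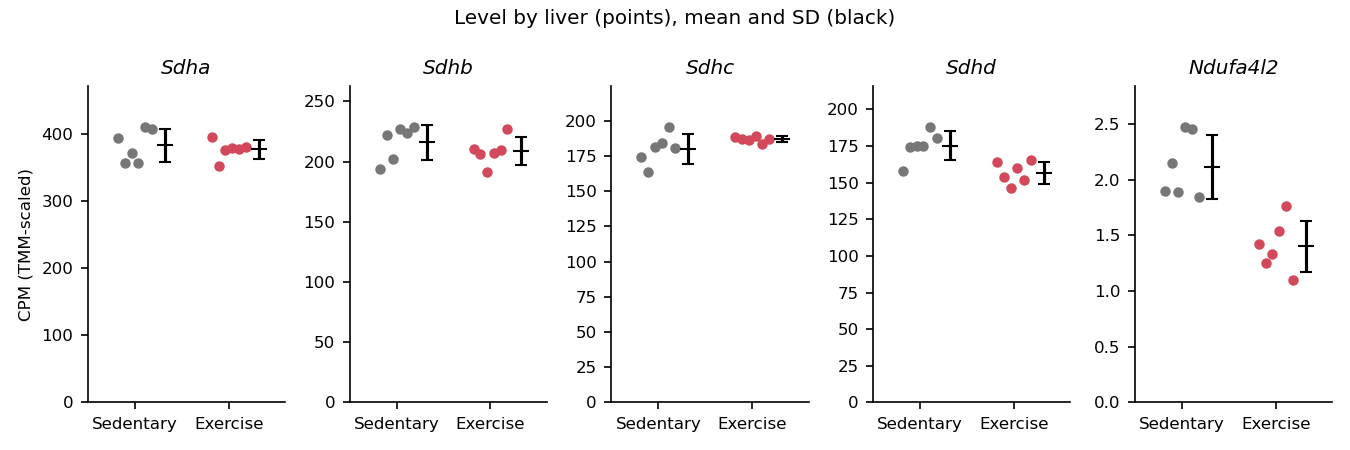
CPM (TMM-scaled, y axis from 0) of the 4 complex II genes and Ndufa4l2 in each liver (points), with the mean and SD of each group of 6 in black. Sdhd was lower in Exercise livers with an overlap of the groups, Ndufa4l2 was lower without overlap, and Sdha, Sdhb and Sdhc overlapped.

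Ndufa4l2, known as a hypoxia-induced relative of Ndufa4 that lowers complex I activity, was the subunit-named gene that changed most. Its level was low, from 1.84 to 2.47 CPM with a median of 2.02 in Sedentary livers and from 1.10 to 1.76 CPM with a median of 1.38 in Exercise livers. The groups did not overlap, which held for 1 of the 79 genes and for 22.3% of all genes tested. The log2 fold change was -0.59 (95% interval -0.91 to -0.26, standard error 0.15, adjusted p = 0.00527 in the edgeR fit, exact permutation p = 0.00216, the smallest that 6 mice against 6 allow), and the call held in all 12 fits that left out 1 liver. These levels rest on 37 to 49 counts in each Sedentary library and 20 to 33 in each Exercise library. The gene (gene ID 407790, chromosome 10 of GRCm38, 127514967 to 127517154, plus strand) overlaps Shmt2 on the other strand, as 30 of the 84 genes do with some annotated gene, and whether reads were counted by strand is not given in the sources used here.

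Complex I has 3 parts, an N module that takes up NADH, a Q module that passes electrons to ubiquinone and a membrane arm that pumps protons. None of the 10 N module genes, 5 Q module genes or 20 membrane arm genes tested changed, and their median log2 fold changes were -0.014, 0.0033 and 0.017. None of the 7 core subunits, which carry the flavin and iron-sulfur centres, changed, and their median was 0.0033. Ndufs4, an N module subunit whose loss causes complex I deficiency, came nearest among the named genes, from 52.95 to 61.0 CPM with a median of 56.9 in Sedentary livers and from 49.4 to 54.5 CPM with a median of 52.8 in Exercise livers. Its groups overlapped, and its log2 fold change of -0.11 (95% interval -0.22 to -0.0099, adjusted p = 0.0727 from edgeR's test) did not pass. Ndufa4 was the most abundant of the genes with a complex I name, at 695 ± 58.6 FPKM (SD, n = 6) in Sedentary and 679 ± 50.6 FPKM (SD, n = 6) in Exercise livers. Its log2 fold change was 0.062 (95% interval -0.065 to 0.19), an estimate with the TMM scaling that the FPKM values lack. Ndufb4c was tested, but it is a near-identical copy of Ndufb4 whose reads the counting could have split, and its value is uncertain.

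None of the 8 complex III genes changed, and their log2 fold changes lay between -0.078 and 0.071. Uqcr11, a small subunit and the most abundant of them per length, had medians of 184.6 CPM in Sedentary and 192.4 CPM in Exercise livers (log2 fold change 0.071, 95% interval -0.083 to 0.23). Uqcr10, another small subunit, had medians of 118.7 and 114.5 CPM (log2 fold change -0.078, 95% interval -0.21 to 0.059). The ranges of both overlapped between the groups. All 8 intervals lay within 1.2-fold.

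Several complex IV subunits exist as a widely expressed and a muscle or tissue-restricted isoform, and the livers held the widely expressed forms. Cox4i1, an isoform of the subunit through which ATP regulates the enzyme, ran from 350.2 to 447.1 CPM with a median of 397.6 in Sedentary livers and from 406.3 to 438.2 CPM with a median of 421.7 in Exercise livers. The Exercise livers lay within the Sedentary range (log2 fold change 0.085, 95% interval -0.044 to 0.21, adjusted p = 0.285 from edgeR's test). Its partner isoform Cox4i2, known from lung and hypoxia, was counted 10 times over all Sedentary and 12 times over all Exercise libraries, too few to test.

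Cox6a1 at 685 ± 69.3 FPKM and Cox8a at 564 ± 61.6 FPKM (SD, n = 6, Sedentary) stood against their heart and muscle isoforms Cox6a2 and Cox8b, with 4 and 2 counts over all 12 libraries. Cox6b1 was at 690 ± 64.1 FPKM (SD, n = 6, Sedentary), and its testis isoform Cox6b2 had 36 counts over the Sedentary and 18 over the Exercise libraries. Cox6a1, Cox6b1 and Cox8a had log2 fold changes of 0.057, 0.031 and 0.063, none past the threshold.

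Cox7a1, the heart and muscle isoform of subunit 7a, was the muscle form detected above a trace, from 1.74 to 3.48 CPM with a median of 2.21 in Sedentary livers and from 1.56 to 2.92 CPM with a median of 2.38 in Exercise livers. The groups overlapped and the interval was wide (log2 fold change -0.10, 95% interval -0.55 to 0.35). In Exercise replicate 1 the summed muscle markers lay near the low end of the Sedentary range. This liver had 1.59 CPM of Cox7a1 and 1.42 CPM of Ndufa4l2, both within the range of the other Exercise livers. Of the 19 muscle markers measured, 6 of the 8 tested fell, and 5 (Mb, Ckmt2, Myl2, Myl3 and Nppa) were below 0.2 CPM in all libraries. The part of the muscle markers' fall in the values of Cox7a1 and Ndufa4l2 was not tested. The liver form Cox7a2 had medians of 135.8 and 130.5 CPM (log2 fold change 0.0040, 95% interval -0.15 to 0.16). Cox7a2l, known as a factor that joins complexes III and IV into supercomplexes, had medians of 84.0 and 89.6 CPM (log2 fold change 0.068, 95% interval -0.040 to 0.18). Supercomplexes, and the form of this gene that the strain carries, were not examined here. Cox7b had medians of 208.0 and 207.4 CPM (log2 fold change 0.027, 95% interval -0.11 to 0.16).

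Complex V held the most abundant gene of all 84 per transcript length. Atp5b, the catalytic beta subunit, ran from 1294 to 1450 CPM with a median of 1365 in Sedentary livers and from 1324 to 1501 CPM with a median of 1400 in Exercise livers, and stood at 774 ± 41.5 FPKM (SD, n = 6) in the Sedentary group. The groups overlapped (log2 fold change 0.030, 95% interval -0.087 to 0.15, adjusted p = 0.698 from edgeR's test). None of the 17 complex V genes changed, and the medians were 0.014 over the 5 genes of the catalytic F1 part, -0.016 over the c ring genes, 0.042 over the 4 stalk genes and -0.036 over 5 small membrane subunits.

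The c ring, the rotor that protons turn, is encoded by 3 genes with the same mature protein. Atp5g3 was the most abundant at 564 ± 62.9 FPKM, followed by Atp5g1 at 407 ± 40.9 FPKM and Atp5g2 at 210 ± 18.6 FPKM (SD, n = 6, Sedentary). These levels lay further apart than their spread. Their log2 fold changes were -0.074, 0.015 and -0.016, with 95% intervals of -0.23 to 0.079, -0.12 to 0.15 and -0.15 to 0.12. Atp5h, a subunit of the peripheral stalk, had the highest estimate of the complex, from 186.5 to 268.4 CPM with a median of 220.7 in Sedentary livers and from 214.2 to 261.8 CPM with a median of 241.7 in Exercise livers. Its Exercise livers lay within the Sedentary range (log2 fold change 0.13, 95% interval -0.032 to 0.29, adjusted p = 0.189 from edgeR's test), and without Sedentary replicate 4 it passed the threshold. Atp5l, a membrane subunit, had medians of 226.9 and 237.1 CPM (log2 fold change 0.077, 95% interval -0.056 to 0.21).

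The subunit genes moved together from liver to liver within each group. The median deviation of the 79 genes from their group means had an SD of 0.092 over the 12 livers on the log2 scale, beside the median change of 0.0065 between the groups. Sedentary replicate 1 was the lowest of the 6 Sedentary livers in 65 of the 79 genes (82.3%, against 2226 of all 12344 genes tested), and Sedentary replicate 4 the highest in 61 (77.2%, against 15.9%). In the Exercise group, replicate 3 was the lowest in 55 genes (69.6%, against 22.2%) and replicate 6 the highest in 57 (72.2%, against 16.0%). Over the 79 genes, the median deviation from the group mean was -0.17 on the log2 scale in Sedentary replicate 1, 0.16 in Sedentary replicate 4, -0.11 in Exercise replicate 3 and 0.094 in Exercise replicate 6. The genes held 1.40 to 1.64% of all counts in Sedentary and 1.27 to 1.53% in Exercise libraries.

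Short genes outside the respiratory chain shared part of this shift. Among 214 other genes with an effective length under 700 bases and at least 10 CPM, Sedentary replicate 1 was lowest in 56.5% and Sedentary replicate 4 highest in 60.7%. Among the 42 subunit genes of that length the shares were 85.7% and 90.5%. In the Exercise group, replicate 3 was lowest in 52.3% of the 214 other genes and replicate 6 highest in 23.8%. Each of these shares was 71.4% among the 42 subunit genes. Of the 18 subunit genes of 1200 bases or more, 14 were lowest in Sedentary replicate 1 and 14 highest in Exercise replicate 6, with median deviations of -0.100 and 0.086, where the 6207 other genes of that length stood at 0.023 and -0.019. The share of other genes called after exercise also rose with length, from 14.5% under 700 bases through 35.4% to 50.4% at 1200 bases or more, at 10 CPM or more. Of the subunit genes, 0 of 42, 1 of 19 and 1 of 18 were called in these length classes, and the part of length in the result beyond the correction above was not tested.

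**Figure D4:**
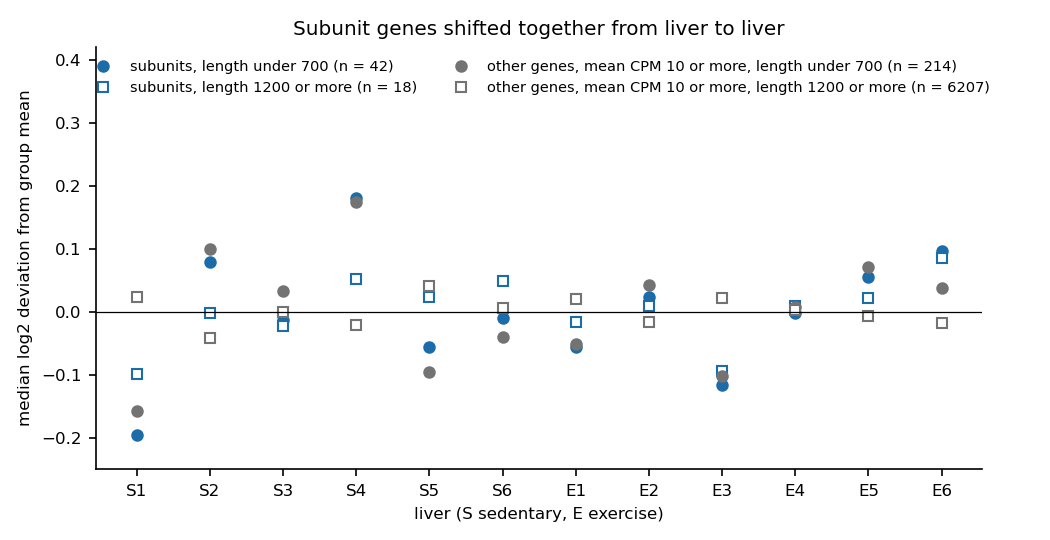
Median log2 deviation from the group mean (y axis) in each of the 12 livers (x axis, S Sedentary, E Exercise) for subunit genes (blue) and other genes with at least 10 CPM (grey), under 700 bases (filled circles) and 1200 bases or more (open squares). Short subunit genes and other short genes shifted alike in most livers, but stood at 0.096 and 0.037 in Exercise replicate 6. Long subunit genes were low in Sedentary replicate 1 and Exercise replicate 3 and high in Exercise replicate 6. Other long genes stayed near 0 in these livers.

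Building the complexes needs assembly factors, proteins that insert cofactors or join subunits and are not part of the finished enzyme, and 27 of the 56 factors tested fell after exercise. These are 48.2% of the list for complexes I to V, against 21.3% of all genes tested, and 3 factors were higher, with a median log2 fold change of -0.17 over the list. With the length correction 20 were lower and 2 higher. For complex I 10 of 17 were lower and 1 was higher, for complex II 1 of 4 was lower, for complex III 3 of 6, for complex IV 11 of 24 with 2 higher, and for complex V 2 of 5. The complex V list included Nbas, which is not an assembly factor. The complex IV list included Lrpprc, Slirp, Taco1 and Fastkd3, which serve mitochondrial RNA or its translation, and of these Lrpprc and Taco1 were lower. The difference between this list and the subunit genes was not itself tested.

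Sdhaf1, which serves the iron-sulfur cluster of Sdhb, ran from 19.7 to 22.8 CPM in Sedentary and from 8.75 to 12.3 CPM in Exercise livers. The groups did not overlap (log2 fold change -0.97 with a standard error of 0.078, adjusted p = 7.56e-08 in the edgeR fit), while Sdhb itself had a value of -0.051, and the complex II factors Sdhaf2 and Sdhaf3 had values of -0.049 and 0.12 that did not pass. For complex I, Lyrm2 fell from 8.71 ± 1.32 to 5.18 ± 0.586 CPM (SD, n = 6 each; log2 fold change -0.75) and Tmem186 by 0.35 on the log2 scale, while Ndufaf6 rose by 0.35. For complex III, Uqcc1 and Lyrm7 fell by 0.24 and 0.42. For complex IV, Coa7 fell by 0.67, and Cox10 and Cox15, which make its heme A, fell by 0.47 and 0.38. Atpaf1 and Atpaf2, chaperones of the F1 part of ATP synthase, fell by 0.31 and 0.21. Over the whole list of 56, the groups did not overlap in 15 genes, 14 of them lower and 1 higher. Among all genes tested they did not overlap in 22.3%, with 10.6% lower and 11.7% higher. Without regard to direction, the share in the list was not far from that of all genes.

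**Figure D5:**
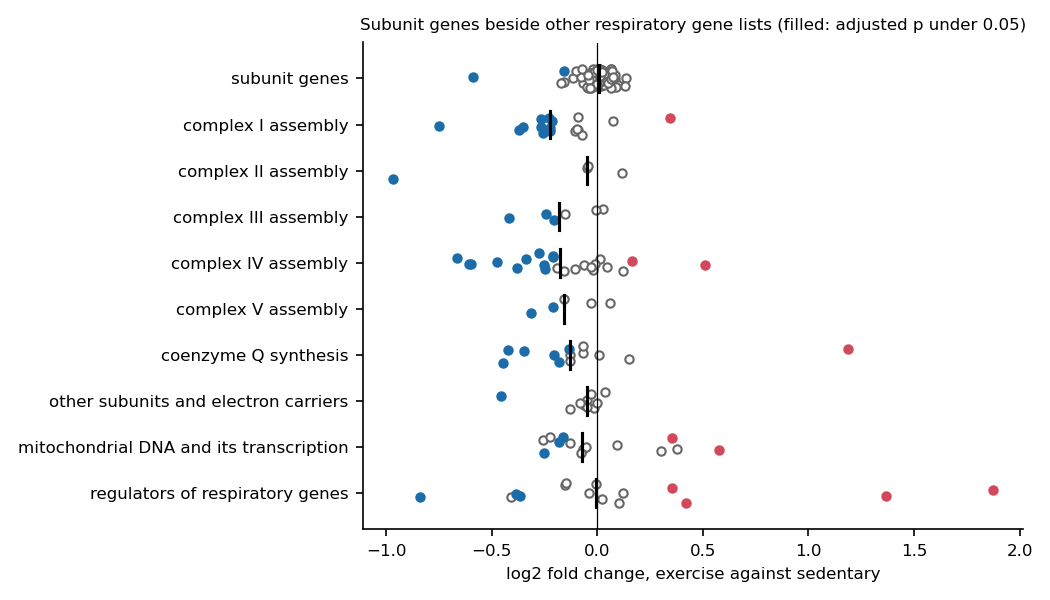
Log2 fold change (x axis) of each gene tested, by list (y axis), with the median as a black bar and filled points for an adjusted p under 0.05 (red higher, blue lower). Subunit genes cluster around 0, while 27 of the 56 assembly factors were lower and Coq10b, Ppargc1a and Ppargc1b lay furthest to the right.

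Of 10 other subunits, electron carriers and linked proteins outside the rule that were tested, 1 changed (10%, against 42.4% of all genes tested). The list included Cyc1, Cycs, Ndufab1, the electron transfer flavoproteins and the enzyme genes Dhodh, Sqor and Gpd2. Gpd2, the glycerol phosphate dehydrogenase that feeds electrons to ubiquinone, fell from 34.6 ± 5.11 to 25.2 ± 1.92 CPM (SD, n = 6 each; log2 fold change -0.46, adjusted p = 0.000507 from edgeR's test). Of 13 coenzyme Q genes, 6 were lower (46.2%, against 21.3% of all genes tested) and 1 was higher (7.69%, against 21.1%). Coq5 and Coq3, methyltransferases of the pathway, fell by 0.44 and 0.35 on the log2 scale. Coq10b, which encodes a coenzyme Q binding protein, rose from 16.0 ± 0.932 to 36.4 ± 2.32 CPM (SD, n = 6 each; log2 fold change 1.19, adjusted p = 6.71e-10 from edgeR's test).

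Of 15 regulators of these genes tested, 4 were higher (26.7%) and 3 lower (20%), shares near the 21.1% and 21.3% of all genes tested. Ppargc1b, a coactivator of mitochondrial genes, rose from 5.55 ± 1.22 to 14.3 ± 2.92 CPM (SD, n = 6 each; log2 fold change 1.37, adjusted p = 4.68e-06 from edgeR's test), beside a rise of 1.88 for Ppargc1a, which encodes PGC-1α. Yy1 rose by 0.35. Of 14 genes for mitochondrial DNA and its transcription, 3 were lower (21.4%) and 2 higher (14.3%), beside the same 21.3% and 21.1%. Tfam, which packages and transcribes mitochondrial DNA, fell by 0.25, while Mgme1, a nuclease of its replication, and Mterf3, a repressor of its transcription, rose by 0.58 and 0.35.

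The choice of scaling set the sign of the smallest values. Scaling by library size alone moved the median of all genes to -0.098 and that of the subunit genes to -0.088, and the estimates of 13 named subunit genes turned from positive to negative, none of them past the threshold. Under that scaling 5 subunit genes were lower, Sdhd, Ndufa4l2, Ndufs4, Ndufa8 and Ndufs1, and none was higher, while 3735 of the 12344 genes tested were lower and 1767 higher. Relative to the median of all genes, the subunit genes stayed near 0 in both.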

How the data were processed

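mRNA libraries were made from total liver RNA of 12 mice with a BGI kit. Per the labels' processing notes, the tools were Bowtie2 2.3.4.3 and RSEM 1.3.1 with the build mm10. The annotation and any strand setting are not given in the sources used here. The authors deposited an expected count (31.3% not whole, unscaled between libraries) and an FPKM value, scaled for length and depth, per gene and library.

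Counts were rounded and tested over all 12344 genes with edgeR 4.0.16 in R 4.3.3 (TMM, robust quasi-likelihood fit, filterByExpr at a minimum count of 10, Exercise against Sedentary as the only term, Benjamini-Hochberg adjustment, threshold 0.05). The biological coefficient of variation was 11.3%. Intervals are 95% intervals of the log2 fold change. For single genes an exact two-sided permutation test compared mean log2(CPM + 0.5) over all 924 relabellings. No 2 of the 66 library pairs were identical. Effective lengths were derived from the counts and FPKM values, and the length correction removed a smooth trend of each library's log2 ratio on log2 length. Positions come from GENCODE M21 (GRCm38, the same assembly as mm10), and promoters from RefSeq. The tests were tried on simulated counts.

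The genes and lists were chosen with earlier results of these data known. Named subunit genes are the complex II genes, the most abundant gene and the 2 with the smallest p of each complex, the largest changes, and the isoform families. Other lists name at most the 3 genes with the smallest p. Alternatives were other scalings, filters, tools (DESeq2 1.42.0, limma 3.58.1 on counts and on log2(FPKM + 0.1) or log2(FPKM + 1)), a stricter threshold, the length correction, a replicate block and leaving out each liver. No sample or column was left out. Values of 1 gene are not reported here, although it stays in all counts. The replicate numbers gave no sign of pairing the livers (see the closing section).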

Additional observations from a re-analysis of the deposited data

Results flagged for a closer look

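In 2 of the 100 groups of 6 livers examined, 1 liver stood far from the other 5, where chance gives about 5 (1 in 20). Ndufs4 was at 49.4 CPM in Exercise replicate 4, against 52.6 CPM in the next lowest Exercise liver. Ppargc1a was at 42.1 CPM in Exercise replicate 3, against 32.5 CPM in the next highest. Exercise replicate 3 was also the lowest Exercise liver in 55 of the 79 subunit genes.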

How the results depend on the processing

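The count of 2 changed subunit genes (0 higher, 2 lower) was the same with RLE factors, limma-voom, unrounded counts, other filters and the replicate block (4956 genes called in all, against 5229). Replicate numbers correlated at -0.093 to 0.16 across groups and only replicate 2 correlated best with its own number. These correlations gave no sign of pairing, and whether the mice were paired by design is not stated in the sources used here. Leaving out 1 liver gave 1 to 4 changed (0 to 1 higher, 1 to 4 lower), 1 to 3 in complex I, 0 to 1 in complexes II and V, and 4 to 7 coenzyme Q genes. The 4 came without Sedentary replicate 1, which added Ndufa8 and Ndufs4. Signs changed among these fits for Cox7a2 (-0.039 to 0.041), Atp5g1 (-0.018 to 0.045), Atp5g2 (-0.035 to 0.027), Cox7a1 (-0.18 to 0.027), Cox7b (-0.015 to 0.052) and Sdha (-0.042 to 0.0026). DESeq2 added 1 higher gene (2 in complex I), and upper quartile scaling added Ndufs4 (2 in complex I) with Atp5g1 at -0.0065 and Cox7a2 at -0.018. At an adjusted p under 0.01, 1 subunit gene was called (1 lower, 0 in complex II), with 1 assembly factor higher, 3 coenzyme Q genes and 3 of mitochondrial DNA. Counting only structural subunits left 1.

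Length correction gave 14 changed (13 higher, 1 lower), 6, 0, 4 and 4 in complexes I, II, IV and V, and 2 among other subunits, with Atp5g2 at 0.052 and Sdhb at 0.019. With the replicate block as well it gave 9 (8 higher, 1 lower), 5, 0, 2 and 2, with Atp5g2 at 0.052 and Sdhb at 0.022.

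Library size alone gave 5 changed, all lower, 4 in complex I, and medians of -0.088 over subunit genes and -0.096, -0.13, -0.089, -0.066 and -0.082 in complexes I to V. It gave 1 assembly factor higher (median -0.27), 4 other subunits (-0.14), 8 genes of mitochondrial DNA (-0.17), and medians of -0.23 for coenzyme Q and -0.10 for regulators. It turned Atp5b (-0.065), Atp5g1 (-0.081), Atp5l (-0.018), Cox4i1 (-0.011), Cox6a1 (-0.039), Cox6b1 (-0.065), Cox7a2 (-0.091), Cox7a2l (-0.028), Cox7b (-0.067), Cox8a (-0.032), Ndufa4 (-0.033), Sdhc (-0.037) and Uqcr11 (-0.024). limma on log2(FPKM + 0.1) gave 6 changed, all lower, 5 in complex I, medians of -0.089 (all genes -0.093) and -0.092, -0.13, -0.087, -0.065 and -0.082, 1 assembly factor higher (-0.27), 4 other subunits and -0.10 for regulators. It turned Atp5b (-0.066), Atp5g1 (-0.079), Atp5l (-0.018), Cox4i1 (-0.0071), Cox6a1 (-0.037), Cox6b1 (-0.063), Cox7a2 (-0.090), Cox7a2l (-0.028), Cox7b (-0.067), Cox8a (-0.031), Ndufa4 (-0.032), Sdhc (-0.037) and Uqcr11 (-0.026). With log2(FPKM + 1) the counts were again 6, 6, 5, 1 and 4, and the medians -0.088, -0.092, -0.13, -0.087, -0.065, -0.081 and -0.097, with the same genes at -0.066, -0.078, -0.018, -0.0071, -0.036, -0.063, -0.089, -0.028, -0.066, -0.031, -0.032, -0.037 and -0.026. Apart from leaving out livers, 273 counts and medians under these alternatives stayed within 1.5 times or 1 SD of the reported ones, and the causes of the others were not tested.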
